A study of Mus musculus with 9 samples.

Results

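A group of 10 genes of the stomach lining, among 24930 gene symbols in the deposited table, was followed in crypt epithelium of the mouse intestine: the gastrokines Gkn1, Gkn2 and Gkn3, the trefoil factors Tff1 and Tff2, the mucin Muc6, the annexin Anxa10, the claudin Cldn18, the transcription factor Sox2 and the pepsinogen Pgc. They were chosen by name, as gastrokines and other genes of gastric epithelium, and all 10 were found in the table. Earlier results of these data, which named Gkn3, were known when the members were chosen, so its p-values are not those of a blind choice. The study sequenced poly(A) RNA in 9 libraries, 1 per group on each of days 8, 9 and 10 after 1 gain-of-function allele of the β-catenin gene Ctnnb1 was induced in the mutants. Control libraries are titled as controls with no further genotype. A first set of 3 mutant libraries, mutant A below, is titled Bcathet (the β-catenin allele alone) but its library names hold both CDX2HET and EXON3. The other set of 3, mutant B, is titled Cdx2het_Bcathet but its library names hold only EXON3. Which of them was heterozygous for Cdx2 is thus given differently by title and by library name, and every direction between A and B below follows the titles. The Cre driver, the age and sex of the mice, any allele that controls share with mutants, and whether each library is a separate animal are details that the labels do not state, so p-values measure only how these libraries spread.

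CDX2 is a homeobox factor that maintains intestinal identity in the gut epithelium, and loss of CDX2 in intestinal cells is known to let genes of the stomach and foregut be expressed there. Exon 3 of Ctnnb1 encodes the residues whose phosphorylation marks β-catenin for degradation, and its removal leaves a stable protein that drives WNT target genes. In the stomach, TFF1 and the gastrokines GKN1 and GKN2 are secreted by surface pit cells. Mucous neck and gland cells secrete TFF2 and MUC6, and chief cells pepsinogen C, while SOX2 is a factor of foregut epithelium. Gkn3 is also known from the mouse small intestine, where it is listed among genes of crypt base stem cells. TFF2 and MUC6 are products of the duodenal Brunner glands as well.

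Values are read as FPKM, fragment counts corrected for transcript length and sequencing depth, a unit inferred because no source names it. On that reading levels can be compared between genes. In these libraries 1 FPKM rested on 16.8 to 19.0 fragments per kilobase of transcript, and the FPKM of a library added up to between 624923 and 755802. The 5 epithelial markers, such as Epcam at 703 to 794 FPKM, were high in all 9 libraries. The day-9 library of mutant B stood apart: on the leading principal component, which held 43.5% of the variance, it lay at -19.1, near the controls at -21.6 to -22.7 and away from the other mutants at 2.57 to 30.0, and it alone had the Xist and Y-linked pattern of a male, with Xist at 0.1 FPKM against 27.0 to 39.4.

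Most of the stomach genes were barely detected. In all, 6 members, Gkn1, Gkn2, Tff2, Muc6, Cldn18 and Sox2, were below 1 FPKM in all 9 libraries, as were 48.7% of all genes in the table. Tff1 passed 1 FPKM in a single library. Only Gkn3, Pgc and Anxa10 reached 1 FPKM in at least 3 libraries and so entered the fit across 12097 genes (limma on log2(FPKM + 1), with p-values adjusted over all of them). Gkn3 and Pgc reached it in all 9 libraries. Anxa10 reached it in 5 mutant libraries and in no control, so it entered the fit only through the libraries in which it is high. The other 7 members had too few fragments for a comparison of groups at this depth.

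**Figure D1:**
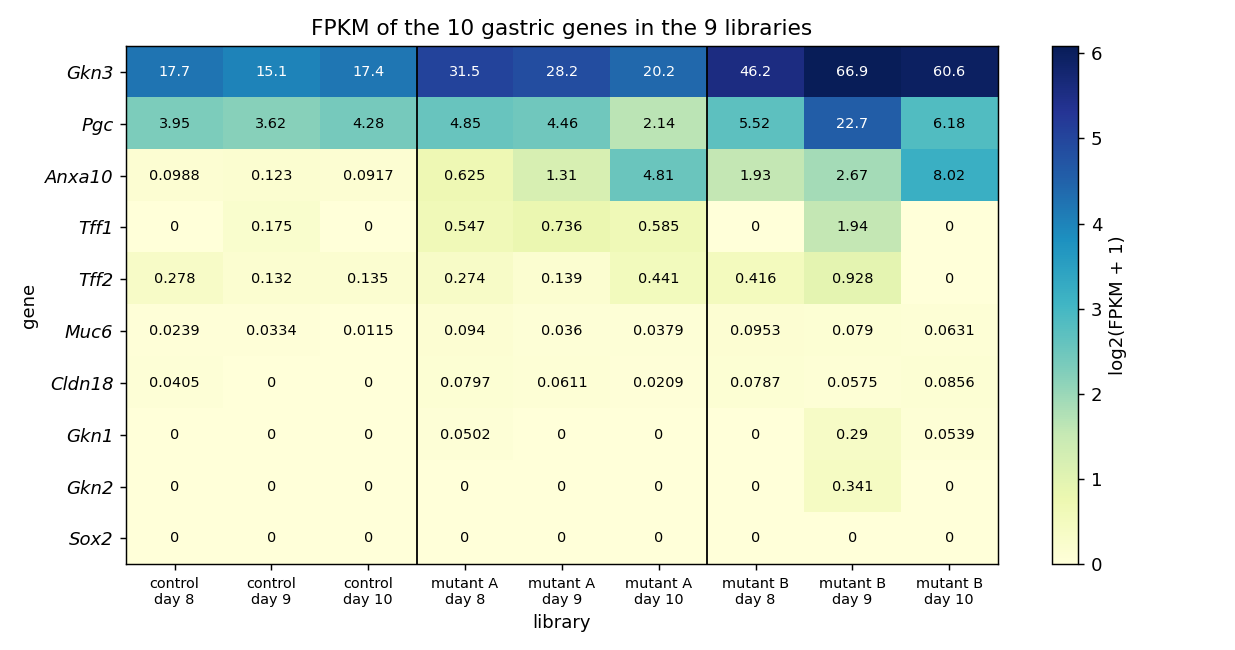
Each cell gives the FPKM of 1 gene (rows, ordered by mean level) in 1 library (columns, by group and day), with colour on the log2(FPKM + 1) scale. Gkn3 is the highest row in every library, and Sox2 is listed at 0 in all 9.

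Gkn3 was the one gastrokine with an appreciable level. It stood at 17.7, 15.1 and 17.4 FPKM in control at days 8, 9 and 10, at 31.5, 28.2 and 20.2 in mutant A, and at 46.2, 66.9 and 60.6 in mutant B. The 3 groups did not overlap: every library of mutant A lay above every control library, and every library of mutant B above every library of mutant A. The lowest value of mutant A, on day 10, was close to the highest control. Group means were 16.7 ± 1.41 FPKM in control, 26.6 ± 5.84 in mutant A and 57.9 ± 10.6 in mutant B (SD, n = 3 each), and each library held 203 to 879 fragments of the gene.

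Against control, Gkn3 rose in both mutants combined and in mutant B. The change was 1.17 ± 0.16 (SE) on the log2 scale for both mutants (limma adjusted p = 0.0192, ratio of mean FPKM 2.52), higher in 6 of 6 mutant libraries. In mutant B it was 1.72 ± 0.18 (limma adjusted p = 0.00856, ratio 3.46, 95% interval 1.30 to 2.13). In mutant A the difference was 0.62 ± 0.18 and did not pass (limma adjusted p = 0.172, ratio 1.59, 95% interval 0.20 to 1.04). A two-sided exact permutation test of FPKM gave p = 0.0238 for 6 mutant libraries against 3 controls and p = 0.1 for each set alone, in every case the smallest p the design allows. The call for both mutants was lost without any 1 control library (adjusted p = 0.0651, 0.102 and 0.103) and without the day-10 library of mutant B (0.0524). It was also lost with no filter on low values (0.163) and with the day as a block (0.054). Among fits that left out a library, the call in mutant B was lost only without that day-10 library (0.051), and it was lost with no filter (0.117). Without the day-9 library of mutant B it stood at adjusted p = 0.0128.

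Between the mutant sets Gkn3 was 2.17 times as high in mutant B, a difference of 1.10 ± 0.18 on the log2 scale (95% interval 0.68 to 1.51). It did not pass over all genes (limma adjusted p = 0.399, unadjusted p = 0.000264), and an exact permutation test gave p = 0.1, the smallest that 3 against 3 allows. In limma no gene at all passed in this comparison (0.0%), and 376 (3.11%) had an unadjusted p under 0.05. Both sets share the same 3 controls, so their own values against control are not separate evidence.

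Gkn1 and Gkn2, the gastrokines of the stomach surface, were close to undetected. Gkn1 was listed at 0 in 6 libraries, at 0.0502 FPKM on day 8 of mutant A and 0.0539 on day 10 of mutant B, about 1 fragment each, and at 0.29 on day 9 of mutant B, about 6 fragments. Gkn2 was listed at 0 in 8 libraries and at 0.341 FPKM, about 4 fragments, on day 9 of mutant B. A library with no fragment allows up to 0.163 FPKM of Gkn1 and 0.28 of Gkn2, taking 3 fragments as the limit for counting error. The 3 gastrokine genes are immediate neighbours in the RefSeq annotation, in the order Gkn1, Gkn2, Gkn3, and Gkn3 lay far above the other two in every library.

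The bases before the start sites of these neighbours and of Anxa10, a further member whose mutant libraries all lay above the controls, are shown to set the expressed gastrokine beside its near-silent neighbours. They are RefSeq promoter sequences of build GRCm38.p6, 250 bases ending at the base before the start, written 5′ to 3′ on the gene's strand, whereas the submitters' processing notes name build mm9 for the deposited values. Capitals mark exact matches to either of a pair of words for CDX factors (TTTATG and TTTATT) or for TCF/LEF factors, the DNA-binding partners of β-catenin (CTTTGA and CTTTGT), on either strand.
Gkn1 (chr6:87350916-87351165, minus strand): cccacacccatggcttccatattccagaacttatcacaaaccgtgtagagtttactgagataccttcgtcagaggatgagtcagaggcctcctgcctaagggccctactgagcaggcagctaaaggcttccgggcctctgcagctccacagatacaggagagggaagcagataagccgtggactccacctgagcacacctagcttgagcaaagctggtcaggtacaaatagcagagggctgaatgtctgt
Gkn2 (chr6:87373115-87373364, plus strand): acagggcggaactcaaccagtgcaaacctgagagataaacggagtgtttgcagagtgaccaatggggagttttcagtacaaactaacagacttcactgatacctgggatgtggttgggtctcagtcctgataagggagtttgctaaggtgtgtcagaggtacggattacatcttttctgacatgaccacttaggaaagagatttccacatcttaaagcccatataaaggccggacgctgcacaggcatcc
Gkn3 (chr6:87388936-87389185, minus strand): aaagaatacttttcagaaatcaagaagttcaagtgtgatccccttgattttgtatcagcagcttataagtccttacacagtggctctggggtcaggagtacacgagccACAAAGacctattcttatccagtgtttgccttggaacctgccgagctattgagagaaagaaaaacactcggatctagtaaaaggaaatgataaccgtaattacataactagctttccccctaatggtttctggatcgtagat
Anxa10 (chr8:62123194-62123443, minus strand): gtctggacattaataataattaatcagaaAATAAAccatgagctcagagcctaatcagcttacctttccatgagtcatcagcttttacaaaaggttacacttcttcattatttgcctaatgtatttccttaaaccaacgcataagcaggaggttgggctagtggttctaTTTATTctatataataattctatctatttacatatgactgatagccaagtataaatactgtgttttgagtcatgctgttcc
Gkn3 held 1 TCF/LEF word (ACAAAG, 137 to 142 bases before the start) and no CDX word, Anxa10 held 2 CDX words (AATAAA, 216 to 221, and TTTATT, 76 to 81 bases before the start), and Gkn1 and Gkn2 held neither. Promoter sequences were at hand for 8 of the 10 members, all but Tff1 and Tff2. A CDX word was found for 2 of the 8, Anxa10 and Sox2, and a TCF/LEF word for 4, Gkn3, Cldn18, Sox2 and Pgc, against 25.5% and 27.6% of 32851 promoters of the same length. Those shares count promoters, whereas members are counted by gene, and Cldn18 had more than 1 promoter. The matches did not overlap one another. AATAAA is also the polyadenylation signal, and the CDX words share ATAAA with the TATA box. A match describes letters in this window only.

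Anxa10, which encodes a calcium-binding annexin of gastric epithelium, had the largest ratio to control of the 3 tested members. It stood at 0.0988, 0.123 and 0.0917 FPKM in control at days 8, 9 and 10, at 0.625, 1.31 and 4.81 in mutant A, and at 1.93, 2.67 and 8.02 in mutant B. All 6 mutant libraries lay above all 3 controls, while the sets overlapped each other. In both mutants the order was day 8, day 9, day 10 from low to high, as for 3.37% of genes tested, with 1 library per day. Control did not show this order.

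The controls held only 3 to 4 fragments of Anxa10 each, against 18 to 130 in mutant A and 56 to 217 in mutant B. Summed over libraries, the mutants were 31.4 times as high as control, with an exact (Clopper-Pearson) 95% counting interval of 16.4 to 69.0 that leaves out the spread between libraries. On the log2(FPKM + 1) scale, which understates such a change, the difference was 1.70 ± 0.46 for both mutants and did not pass (limma adjusted p = 0.104, 95% interval 0.64 to 2.76). It was 1.34 ± 0.53 in mutant A (adjusted p = 0.267) and 2.06 ± 0.53 in mutant B (adjusted p = 0.141), both by limma, and mutant B minus mutant A was 0.72 ± 0.53 (limma adjusted p = 1.0). With a pseudocount of 0.1 instead of 1 the difference for both mutants was 3.60 (limma adjusted p = 0.0435). Since the filter kept Anxa10 only through its mutant libraries, its limma and permutation values against control are given as a description. With no filter the adjusted p for both mutants was 0.372. The two-sided exact permutation p over 6 and 3 libraries was 0.0238, the smallest possible.

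Pgc, which encodes the protease precursor pepsinogen C, had a moderate level in all libraries and 1 high value. It stood at 3.95, 3.62 and 4.28 FPKM in control, 4.85, 4.46 and 2.14 in mutant A, and 5.52, 22.7 and 6.18 in mutant B, at days 8, 9 and 10. The 3 libraries of mutant B lay above all others, with the day-9 library far above the rest, and mutant A overlapped control. Means were 3.95 ± 0.33 FPKM in control, 3.81 ± 1.46 in mutant A and 11.5 ± 9.72 in mutant B (SD, n = 3 each). None of the comparisons passed in limma. The difference was 0.49 ± 0.41 on the log2 scale for both mutants (limma adjusted p = 0.534), -0.09 ± 0.47 for mutant A (adjusted p = 0.944) and 1.07 ± 0.47 for mutant B (adjusted p = 0.313). Mutant B minus mutant A was 1.16 ± 0.47 (limma adjusted p = 1.0), and without the day-9 library of mutant B the value for mutant B against control was 0.47.

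**Figure D2:**
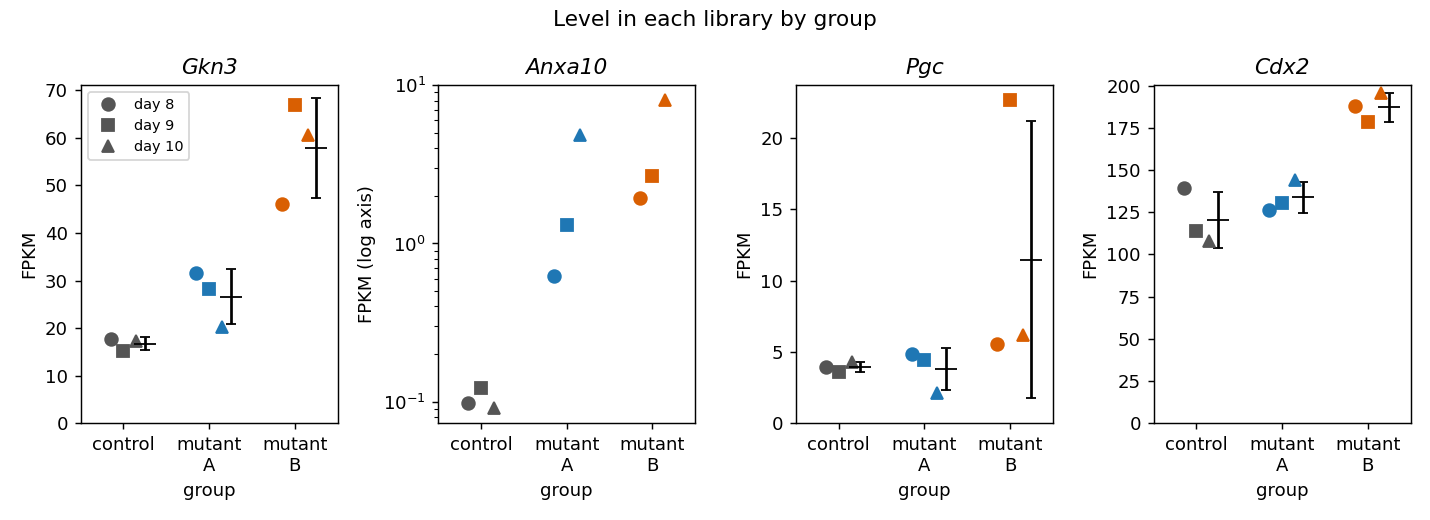
FPKM in each library by group for Gkn3, Anxa10, Pgc and Cdx2, with days as marker shapes. Black marks are means ± SD (n = 3), left out for Anxa10, whose axis is logarithmic. The groups do not overlap for Gkn3, and for Pgc 1 library of mutant B, at 22.7 FPKM, stands far above the others.

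The other secreted and structural members remained low. Tff1, a mucosal repair peptide, was listed at 0 in 2 controls and at 0.175 FPKM in the day-9 control, at 0.547, 0.736 and 0.585 in mutant A, and at 0, 1.94 and 0 in mutant B. Mutant A lay above control without overlap, on about 5 to 7 fragments per library, and mutant B held both the highest value and 2 values of 0. Tff2, its relative, was at 0.278, 0.132 and 0.135 FPKM in control, 0.274, 0.139 and 0.441 in mutant A and 0.416, 0.928 and 0 in mutant B, no more than 7 fragments in a library, and the groups overlapped. Muc6, the gland mucin, was at 0.0239, 0.0334 and 0.0115 FPKM in control, 0.094, 0.036 and 0.0379 in mutant A and 0.0953, 0.079 and 0.0631 in mutant B. Its 6 mutant libraries lay above its 3 controls, but the lowest mutant library and the highest control each held about 5 fragments. Cldn18, a tight junction protein, was at 0.0405, 0 and 0 FPKM in control, 0.0797, 0.0611 and 0.0209 in mutant A and 0.0787, 0.0575 and 0.0856 in mutant B, or 0 to 6 fragments, with mutant B above control and mutant A overlapping both. Sox2 was listed at 0 in all 9 libraries, which allows up to 0.0938 FPKM per library. Fitted with no filter on low values, none of these members had a limma adjusted p under 0.05 in any comparison, and the smallest was that of Cldn18 for both mutants, at 0.421.

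In limma 1 of the 3 tested members was called higher for both mutants against control and in mutant B against control, Gkn3 in each case, where 0.513% and 0.389% of all genes tested were called higher. None was called higher for mutant A (0.124% of all genes) or for mutant B minus mutant A (0.0%). No member was called lower in any of the 4 comparisons, where 0.645%, 0.0909%, 0.24% and 0.0% of all genes were. At an unadjusted p under 0.05 stood 2 of the 3 in each of the 4 comparisons, against 21.0%, 16.7%, 16.5% and 3.11% of all genes. Anxa10 was 1 of the 2 in each of the 3 comparisons with control. Of the 10 members, 3 had all 6 mutant libraries above all controls (3.45% of all genes in the table), 4 had mutant A above control (8.2%), 5 had mutant B above control (6.94%) and 2, Gkn3 and Pgc, had mutant B above mutant A (2.25%). Several of these members rest on a handful of fragments, so the counts are a description.

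**Figure D3:**
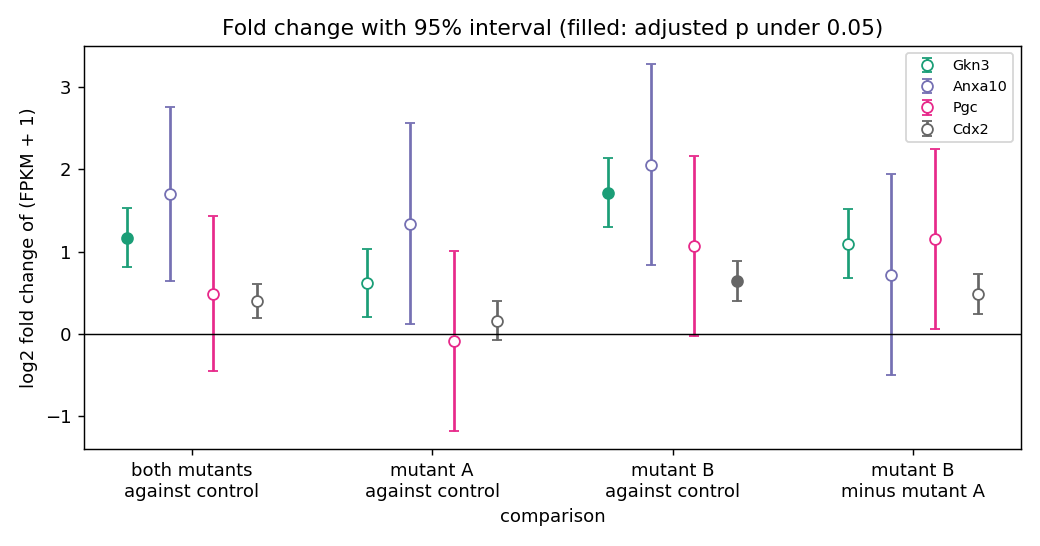
Log2 fold change of (FPKM + 1) with its 95% interval for the 3 tested members and Cdx2 in the 4 comparisons. Filled points passed an adjusted p of 0.05: Gkn3 for both mutants (1.17) and for mutant B (1.72), and Cdx2 for mutant B (0.64).

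Cdx2 itself was not below control in either mutant set. It stood at 139, 114 and 108 FPKM in control, 126, 131 and 144 in mutant A and 188, 178 and 196 in mutant B, at days 8, 9 and 10. Mutant B lay above both other groups, and mutant A overlapped control. It rose in mutant B against control by 0.64 ± 0.10 on the log2 scale (limma adjusted p = 0.0442), a call that held without the day-8 control or the day-9 library of mutant B and was lost without any of the other 7 libraries (adjusted p from 0.0567 to 0.176). It was also lost with the day as a block (0.0791), in the fit to the compared groups (0.106) and with no filter on low values (0.316). In mutant A the difference was 0.16 ± 0.10 (limma adjusted p = 0.479). Mutant B minus mutant A was 0.48 ± 0.10 and did not pass (limma adjusted p = 0.948, unadjusted p = 0.00151). A lowered dose of Cdx2 is given by the labels and was not seen in these levels against control. Between the mutants, every library of mutant A, whose library names hold CDX2HET, lay below every library of mutant B. With the highest mean Gkn3, Pgc and Anxa10, mutant B also had the highest mean Cdx2. Whether the Cdx2 allele still yields the transcripts counted here is not stated. Cdx1, its paralog, was at 182 to 206 FPKM in control, 181 to 207 in mutant A and 152 to 198 in mutant B, and was not called in any comparison. Ctnnb1 was at 187 to 207 FPKM in control, 211 to 239 in mutant A and 223 to 239 in mutant B, and did not pass either (limma adjusted p = 0.126 for both mutants, difference 0.22 ± 0.07, higher in 6 of 6 mutant libraries).

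Beyond the members, 17 further stomach genes were in the table, and 13 of them were below 1 FPKM in every library. The pit cell mucin Muc5ac, the gastric lipase Lipf and the chitinase Chia1 were listed at 0 throughout. The proton pump subunits of parietal cells, Atp4a and Atp4b, stood at no more than 0.568 and 0.0976 FPKM. Of the 17, 4 were tested, Ctse, Cblif, Capn8 and A4gnt, and none was called in limma in any comparison, while at an unadjusted p under 0.05 there was 1 of 4 for mutant A and 1 of 4 for mutant B, against 16.7% and 16.5% of all genes tested. Ctse, the aspartic protease cathepsin E, was at 1.42 to 4.12 FPKM in control, 2.40 to 4.26 in mutant A and 2.95, 16.6 and 8.29 in mutant B, a difference of 1.37 ± 0.52 for mutant B against control (limma adjusted p = 0.252). Cblif, gastric intrinsic factor, was at 0.657 to 3.24 FPKM in control and 0.0393 to 1.03 in mutant A, a difference of -1.02 ± 0.38 (limma adjusted p = 0.246).

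Of the 17, 0 had all 6 mutant libraries above all controls (3.45% of all genes in the table), 0 had mutant A above control (8.2%), 4 had mutant B above control (6.94%) and 5 had mutant B above mutant A (2.25%). The 4 were Vsig1, Slc26a9, Aqp5 and Gast, named after their values were seen, and the fifth between the mutants was Cblif, at 1.22 to 2.22 FPKM in mutant B, within the range of control. Aqp5, a water channel of pyloric glands, was at 0.615, 0.182 and 0.896 FPKM in mutant B and at no more than 0.0816 in the other 6 libraries, about 6 to 25 fragments against 0 to 2. Gast, the gene of the hormone gastrin, was at 0.195, 0.563 and 0.207 FPKM in mutant B, 1 to 3 fragments, and listed at 0 elsewhere. None of the 8 squamous foregut genes, such as Trp63 and Krt5, exceeded 0.214 FPKM in any library.

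Of 11 intestinal identity genes tested, Cdx2 was the 1 called (higher in mutant B, as were 0.389% of all genes tested). Among the duodenal genes, the factor Pdx1 was at 17.0 to 30.0 FPKM over all libraries and Gata4 at 83.7 to 104. None of the 8 duodenal genes was called in limma in any comparison, with 1 at an unadjusted p under 0.05 in each of the 3 comparisons with control and 0 between the sets, against 21.0%, 16.7%, 16.5% and 3.11% of all genes tested. Of 10 crypt base stem cell genes, Igfbp4, an IGF-binding protein, was the 1 called, higher for both mutants and for mutant B (0.513% and 0.389% of all genes tested), with means of 23.7 ± 4.80 FPKM in control, 63.5 ± 16.0 in mutant A and 109 ± 39.0 in mutant B (SD, n = 3 each; 2.11 ± 0.27 for mutant B against control, limma adjusted p = 0.0208). Its call in mutant B was lost without any 1 control (adjusted p = 0.0734, 0.0878 and 0.058) and without the day-8 or day-10 library of mutant B (0.0581 and 0.0524), and also with the day as a block (0.0607), in the fit to the compared groups (0.0555) and with no filter (0.173). Like Gkn3, it had mutant B above mutant A above control without overlap. Lgr5, the receptor that defines these stem cells, was at 9.48 to 11.4 FPKM in control, 9.79 to 25.6 in mutant A and 18.1 to 32.7 in mutant B, and did not pass (mutant B against control 1.04 ± 0.34, limma adjusted p = 0.197).

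Marker sums for pancreatic acinar, gastric pit and gastric chief cells were highest in 1 library. The day-9 library of mutant B held the highest value of 6 members, Gkn1, Gkn2, Gkn3, Tff1, Tff2 and Pgc, and so did 15.1% of all genes above 0 in any library. The 6 pancreatic acinar markers, 3 of which never reached 1 FPKM, summed to 7.30 FPKM there, against 0.365 to 1.58 in control and 0.151 to 1.16 in the other 5 mutant libraries. The 4 gastric pit cell markers, of which Gkn1, Gkn2 and Tff1 are members, summed to 2.57 FPKM there, against 0 to 0.175 in control and 0 to 0.736 in the other 5 mutants, with Muc5ac at 0. The 3 chief cell markers in the table, Pgc among them, summed to 23.9 FPKM against 4.27 to 7.51 in control and 3.18 to 7.74 in the other 5 mutants, with Lipf at 0. Pgc alone made up 22.7 FPKM of that sum, and Cblif, at 1.22, lay within its control range of 0.657 to 3.24. Of the 10 stem cell genes, 9 were also highest in that library, as were 12.7% of genes tested. In bulk samples fewer cells of a type and less RNA per cell cannot be told apart, and the part of these cells in the member values was not tested. For Gkn3 the difference between mutant B and control was 1.61 without that library, against 1.72 with it.

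**Figure D4:**
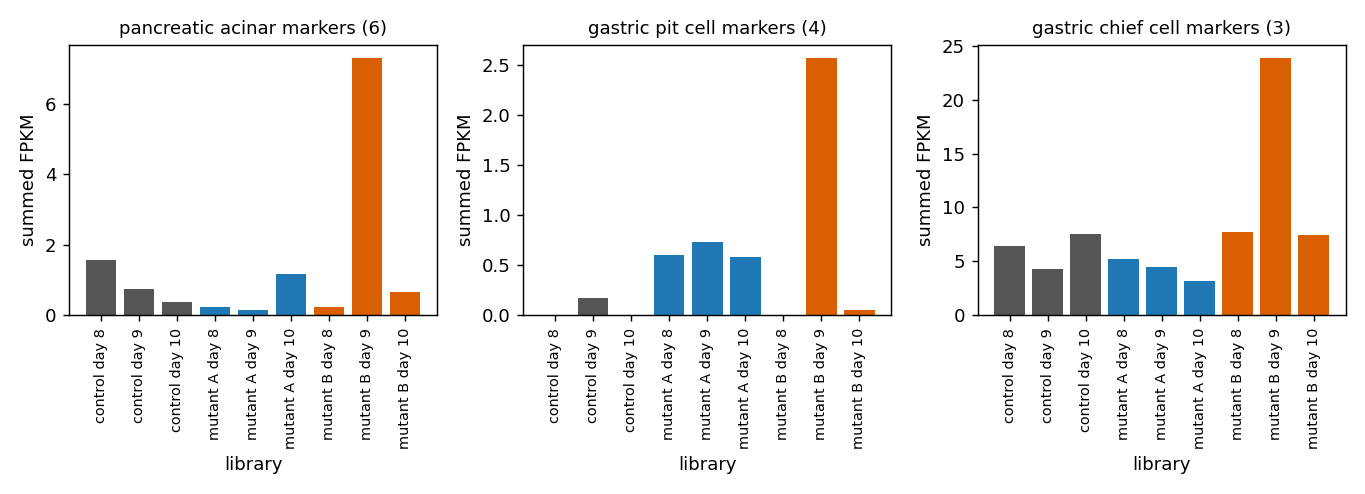
Summed FPKM of 3 marker lists in each library, with bars from 0 and colours by group (control grey, mutant A blue, mutant B orange). The day-9 library of mutant B has the highest bar in each panel, at 7.30, 2.57 and 23.9 FPKM. Pgc alone makes up 22.7 FPKM of the last.

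The other marker lists were read in the same way. The 6 fibroblast markers summed to at most 0.117 FPKM in control and to 0.597 to 5.92 in mutant A and 0.242 to 6.64 in mutant B, and the 5 T cell markers to 11.5 to 16.7, 2.64 to 12.2 and 2.55 to 12.9. In mutant A the fibroblast sum was 4.61, 5.92 and 0.597 FPKM at days 8, 9 and 10, with Gkn3 at 31.5, 28.2 and 20.2. In mutant B it was 1.33, 6.64 and 0.242 FPKM, with Gkn3 at 46.2, 66.9 and 60.6. Paneth cell markers, 5 genes, summed to 40980 to 70112 FPKM in control, 11768 to 23078 in mutant A and 23370 to 27058 in mutant B. Of the 5, Lyz1, Defa24 and Ang4 were called lower for both mutants (limma adjusted p = 0.0456, 0.0418 and 0.0473), as were 0.645% of all genes tested. Of 7 enteroendocrine markers, Ghrl was called lower in mutant A (-0.82 ± 0.11, limma adjusted p = 0.0364), as were 0.0909% of all genes tested. The part of these cells in the member values was not tested.

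The genes with patterns most like those of the tested members, by Pearson correlation of log2(FPKM + 1) over the 9 libraries among the genes tested, are given as a description. The points share 3 groups and the same libraries. For Gkn3 they were Smox, spermine oxidase (r = 0.96), Dlgap4 (r = 0.955) and Hcn3, a cation channel (r = 0.95). Smox was at 7.38 to 7.75 FPKM in control, 8.85 to 9.75 in mutant A and 11.2 to 13.1 in mutant B, the same order of groups as Gkn3 on a smaller scale. For Anxa10 they were Epop (r = 0.967), the transcription factor Runx1 (r = 0.965) and Syt8 (r = 0.961). Runx1 was at 0.741 to 0.912 FPKM in control, at 1.52, 1.45 and 3.14 in mutant A and at 2.60, 2.00 and 3.81 in mutant B, also highest on day 10 of each set. For Pgc they were Als2cl (r = 0.949), Mpst (r = 0.945) and Zfp503 (r = 0.941), each with its highest value in the day-9 library of mutant B.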

How the data were processed

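Poly(A) RNA of mouse epithelium was sequenced paired-end, per the labels' protocols, and 1 table of 9 libraries was deposited. The deposited values were read as FPKM, a unit inferred from them because no source names it. They are fractional, sum to different totals and fall in steps that shrink with transcript length. These traits do not tell FPKM from another length-corrected unit rescaled between libraries. Over 15138 genes each library has the same median ratio (1.00276) to the gene-wise geometric mean. Per the submitters' processing notes, the tools were DESeq2 1.40.1 and kallisto 0.46.1 and the build mm9, with no role given for any of them and no annotation named. Libraries were grouped by title, with replicates 1, 2 and 3 the libraries of days 8, 9 and 10.

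The fit used limma 3.58.1 (R 4.3.3) and log2(FPKM + 1) of genes reaching 1 FPKM in 3 or more libraries, with group means over all 9 libraries, trend and robust options and Benjamini-Hochberg adjustment (threshold 0.05). The script was tested on simulated data. Fragments were estimated from the lowest step of long genes, with transcript lengths from GENCODE M21 less 151 bases, the offset found in short genes. Single genes were tested by exact permutation (scipy 1.17.1). Named besides the members were Cdx2, Cdx1, Ctnnb1, called or defining genes of fixed lists, and the 3 genes most like each tested member, while the other genes named were chosen after their values were seen. The members and lists were chosen with earlier results of these data known. Alternatives were leaving out each library in turn, library weights, the day as a block, equal totals, a pseudocount of 0.1, no filter or one at 5 FPKM, and fits to the compared groups. The day was not taken to pair libraries.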

Additional observations from a re-analysis of the deposited data

Results flagged for a closer look

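Among the 6 mutant libraries, 3 of the 9 members above 0 had a day-9 library of mutant B far from the rest by Dixon's criterion, under which chance marks about 1 in 20 groups: Gkn1 at 0.29 FPKM, Gkn2 at 0.341 FPKM and Pgc at 22.7 FPKM. The gap to the next library was 0.814, 1.0 and 0.804 of the whole range, against a critical value of 0.625. Gkn2 was at 0 in the other 5 mutant libraries, so any fragment in a single library gives a gap of 1.0. Its value carries no weight against that chance rate. That rate assumes normally distributed values, and Gkn1 held 0 or about 1 fragment in each of those 5 libraries, so it does not hold for Gkn1 either. The 3 values come from 1 library, so they are not separate observations, and Gkn1 and Gkn2 rest on about 6 and 4 fragments there. Tff1 in the same library, at 1.94 FPKM, had a gap of 0.621 and fell just short. That library also had the highest sum of pancreatic acinar markers, 7.30 FPKM.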

How the results depend on the processing

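Gkn3 stayed higher in the mutants in all comparisons and settings run, and its calls were less stable than its direction. With no filter on low values its log2 difference of 1.17 for both mutants did not pass (adjusted p = 0.163), nor did that of 1.72 for mutant B (adjusted p = 0.117). With the day as a replicate block the value for both mutants was 1.17 (adjusted p = 0.054) and that for mutant B still passed (adjusted p = 0.0371). Same-day libraries of different groups had deviations correlated at -0.236 to 0.615, and different-day libraries at -0.552 to 0.294. Between the mutants the same-day values were -0.0178, 0.398 and 0.615 at days 8, 9 and 10. The days were not taken as pairs, a choice that these values do not settle. Over 9 fits that each left out a library, Gkn3 ran from 1.10 to 1.26 for both mutants (adjusted p = 0.0136 to 0.103), 0.49 to 0.80 for mutant A, 1.61 to 1.87 for mutant B (adjusted p = 0.00637 to 0.051) and 0.92 to 1.25 for mutant B minus mutant A. In exact permutation tests of FPKM that left out a library the difference for both mutants was 20.6 to 29.94 FPKM with p = 0.0357 to 0.0714.

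Members called for both mutants were 2 with a pseudocount of 0.1, 0 with no filter, 0 with the replicate block and 0 to 1 without a library. For mutant B they were 0 with no filter, 2 with library weights (Anxa10 added) and 0 to 1 without a library. Anxa10 was also the member added by the pseudocount of 0.1. The filter kept it only through its mutant libraries, so its calls are a description. Over all genes, library weights gave 1438 calls for both mutants, 44 for mutant A, 2035 for mutant B and 3 for mutant B minus mutant A, and no filter gave 14, 8, 3 and 6, against 140, 26, 76 and 0. For mutant A the replicate block gave 16, for mutant B the fit to the compared groups gave 33, and for mutant B minus mutant A a pseudocount of 0.1 gave 2. Leaving out a library gave 17 to 994, 3 to 124, 18 to 477 and 0 to 1, the highest of the first 3 without the day-9 library of mutant B. Small differences changed sign in mutant A: Pgc was 0.0190 with library weights and -0.255 to 0.193 when a library was left out (above 0 without the day-10 library of mutant A), and Cdx1 was 0.0530 with equal totals and -0.0628 to 0.0410 when a library was left out (above 0 without the day-9 control, the day-10 control or the day-9 library of mutant A). The cause was not tested. Members below 1 FPKM rest on too few fragments to be compared at this depth.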
